A study of Mus musculus with 7 samples.

Results

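The genes described here are 32 components of protein folding, quality control and stress signalling in the endoplasmic reticulum (ER), measured by RNA-seq in mouse motor cortex. They were listed by name and known role (ER chaperones, disulfide isomerases, ER-associated degradation and the IRE1/XBP1 and ATF6 arms of the unfolded protein response), with earlier results of these data known. All 32 were found among the 54532 genes of the count table, and all 32 passed the filter on low counts that left 16308 genes for testing. The samples were 4 libraries from conditional knockout (cKO) mice and 3 from wild-type (WT) mice. All of these mice, cKO and WT alike, received a virus named GA100 in both lateral ventricles at postnatal day 0, and cortex was taken 3 months later, after behavioural tests. The series title names C9orf72 poly-GA mice, a model built on a glycine-alanine dipeptide repeat protein, along with TIA1, a stress granule protein, and HSP70. No uninjected mice were analysed here, and cKO was compared with WT under the same injection. The sources used here do not give the deleted exons, the Cre line or the cells in which the deletion takes place. No label states that the libraries came from separate mice, so the p-values cover the spread among libraries, which may be technical in part. The design text asks how gene expression differed between cKO and WT cortex.

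Library totals lay between 15181390 and 16463721 counts, and no pair of libraries agreed within sampling noise (chi-square per degree of freedom 4.76 to 25.5 over 21 pairs). Tia1, read as the targeted gene from the title, had 81.4, 80.3, 72.7 and 81.9 CPM (counts scaled to library size) in cKO replicates 1 to 4, against 60.6, 95.8 and 68.9 CPM in WT replicates 1 to 3. Its log2 fold change, cKO minus WT as throughout, was 0.07 ± 0.13 (SE), with an edgeR quasi-likelihood adjusted p of 0.914. Tia1 was thus not lower in the libraries labelled cKO, and counts summed over a gene do not reveal the loss of single exons. Below, cKO stands for the libraries labelled cKO, and every direction is that of those labels. Replicate 1 of each group carried Xist (19151 counts in cKO, 15217 in WT) and 0 counts of the Y-linked Ddx3y, and the other 5 libraries had 1073 to 1386 counts of Ddx3y. Markers of motor cortex cell types were present in every library. The summed level of 6 choroid plexus markers was 172 CPM in cKO replicate 4, against 18.6 to 21.3 CPM in the other cKO libraries and 13.6 to 21.7 CPM in WT. The summed level of 4 olfactory bulb markers was 131 CPM in cKO replicate 3, against 1.93 to 4.03 CPM in the other cKO libraries and 2.38 to 3.08 CPM in WT. Values without these 2 libraries are given below for the members described in full.

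Secreted and membrane proteins enter the ER through the Sec61 channel, fold with the help of chaperones and disulfide isomerases, and are sent back to the cytosol for destruction by ER-associated degradation (ERAD) when folding fails. Unfolded protein in the ER activates the sensors IRE1, ATF6 and PERK. IRE1 splices Xbp1 mRNA, ATF6 is cut to release a transcription factor, and both raise transcription of chaperone and ERAD genes through ER stress elements in their promoters. PERK slows translation and favours ATF4. In neurons this response has been studied in many models of protein aggregation.

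Promoter sequence was read from RefSeq windows of 300 bases (GRCm38.p6, the mm10 assembly, 250 bases before to 50 after each annotated start). Windows were found for 24 of the 32 members, 28 windows in all. Hyou1, Hspa13, Sil1, Manf, Atf6, Derl1, Sec61a1 and Sec11c had no entry. Both strands were searched for the ER stress element ERSE (CCAAT, then any 9 bases, then CCACG) and for ERSE-II (ATTGG, then any base, then CCACG). ERSE is bound by ATF6 and XBP1 together with the CCAAT-binding factor NF-Y. The windows of 4 members are shown whole because they belong to members with an unadjusted p under 0.05 below and show the 3 situations met, an ERSE, an ERSE-II or neither. Capitals mark the ERSE in Hspa5 (chr2:34771840-34772139, plus strand), the ERSE-II in Herpud1 (chr8:94386179-94386478, plus strand), and the core CCACG or its reverse complement CGTGG in Sdf2l1 (chr16:17132334-17132633, minus strand) and Pdia4 (chr6:47813463-47813762, minus strand). Each is written in the direction of transcription.
Hspa5: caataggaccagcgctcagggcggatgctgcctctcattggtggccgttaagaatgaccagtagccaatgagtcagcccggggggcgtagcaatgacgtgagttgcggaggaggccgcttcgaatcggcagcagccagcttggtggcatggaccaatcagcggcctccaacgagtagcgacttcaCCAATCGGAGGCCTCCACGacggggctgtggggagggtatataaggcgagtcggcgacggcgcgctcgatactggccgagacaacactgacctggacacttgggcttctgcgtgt
Herpud1: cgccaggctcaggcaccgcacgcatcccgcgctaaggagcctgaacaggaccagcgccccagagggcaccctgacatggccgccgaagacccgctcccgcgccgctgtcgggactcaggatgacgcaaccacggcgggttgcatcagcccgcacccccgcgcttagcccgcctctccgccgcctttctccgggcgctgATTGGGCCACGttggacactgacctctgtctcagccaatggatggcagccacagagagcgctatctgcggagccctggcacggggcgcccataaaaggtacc
Sdf2l1: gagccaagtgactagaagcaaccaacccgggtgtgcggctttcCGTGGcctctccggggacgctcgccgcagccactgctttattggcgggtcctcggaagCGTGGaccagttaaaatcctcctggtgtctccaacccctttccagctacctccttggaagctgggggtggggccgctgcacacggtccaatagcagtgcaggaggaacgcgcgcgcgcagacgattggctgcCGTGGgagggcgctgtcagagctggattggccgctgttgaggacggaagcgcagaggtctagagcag
Pdia4: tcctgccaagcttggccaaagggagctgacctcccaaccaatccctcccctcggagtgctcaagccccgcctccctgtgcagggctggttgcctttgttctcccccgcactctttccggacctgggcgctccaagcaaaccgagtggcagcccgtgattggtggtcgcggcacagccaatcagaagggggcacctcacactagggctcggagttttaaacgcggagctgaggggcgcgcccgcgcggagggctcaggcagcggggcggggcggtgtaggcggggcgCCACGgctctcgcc

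An ERSE was found in 8 of the 24 members with a window (33.3%), in 2 of 49 other genes of the pathway (4.08%) and in 39 of all 32851 mouse promoter windows of the same length (0.119%). The members were Hspa5, Calr, Canx, Hsp90b1, Pdia6, Creld2, Derl3 and Syvn1, and the other pathway genes were Dnajc3 and Ero1lb. Hsp90b1 held 2 of them. An ERSE-II was found in Herpud1 alone among the members, in Dnajb11 among the other pathway genes and in 12 of all windows (0.0365%). The elements are shown with 6 bases on each side, with the CCAAT and CCACG blocks (or their reverse complements ATTGG and CGTGG) in capitals.
Hspa5 (chr2:34772019-34772049, plus strand): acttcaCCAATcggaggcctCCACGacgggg
Hsp90b1, first (chr10:86705632-86705662, minus strand): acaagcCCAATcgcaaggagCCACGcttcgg
Hsp90b1, second (chr10:86705527-86705557, minus strand): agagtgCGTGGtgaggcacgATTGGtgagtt
Canx (chr11:50325794-50325824, minus strand): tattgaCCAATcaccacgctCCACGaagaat
Calr (chr8:84847069-84847099, minus strand): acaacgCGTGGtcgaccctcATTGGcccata
Pdia6 (chr12:17266485-17266515, plus strand): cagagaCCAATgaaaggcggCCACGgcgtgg
Creld2 (chr15:88819514-88819544, plus strand): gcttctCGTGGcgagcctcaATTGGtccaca
Derl3 (chr10:75893236-75893266, plus strand): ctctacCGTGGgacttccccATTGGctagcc
Syvn1 (chr19:6046526-6046556, plus strand): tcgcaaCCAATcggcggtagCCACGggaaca
Herpud1, ERSE-II (chr8:94386371-94386393, plus strand): gcgctgATTGGgCCACGttggac
The blocks stood in the order CCAAT then CCACG on the gene's strand in Hspa5, Canx, Pdia6, Syvn1 and the first Hsp90b1 site, and in the reverse order in Calr, Creld2, Derl3 and the second Hsp90b1 site.

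The positions of these elements ranged from base -212 (the first Hsp90b1 site) to base -26 (the last base of the Syvn1 site) relative to the start. The shorter core CCACG, which lies within ERSE and ERSE-II, was in 21 of 24 members (87.5%), 28 of 49 other pathway genes (57.1%) and 32.8% of all windows. The CCAAT box, also part of ERSE and, reversed, of ERSE-II, was in 18 of 24 members (75%), against 37.4% of all windows. The element TGACGTGG, which holds the reversed core, was in Txndc5 and Txndc11, 2 of 24 members (8.33%), against 0.676% of all windows. For every motif, members and other pathway genes were counted per gene over all its windows, and the background per window. The units thus differ, and Txndc5 had 3 starts and Txndc11 2. Neither ERSE nor ERSE-II was found in the windows of Pdia4, Sdf2l1, Xbp1 and Derl2. A match is a run of letters and not a shown binding site. A missing match covers this window and the exact letters only, so elements that differ by a base were not counted.

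**Figure D1:**
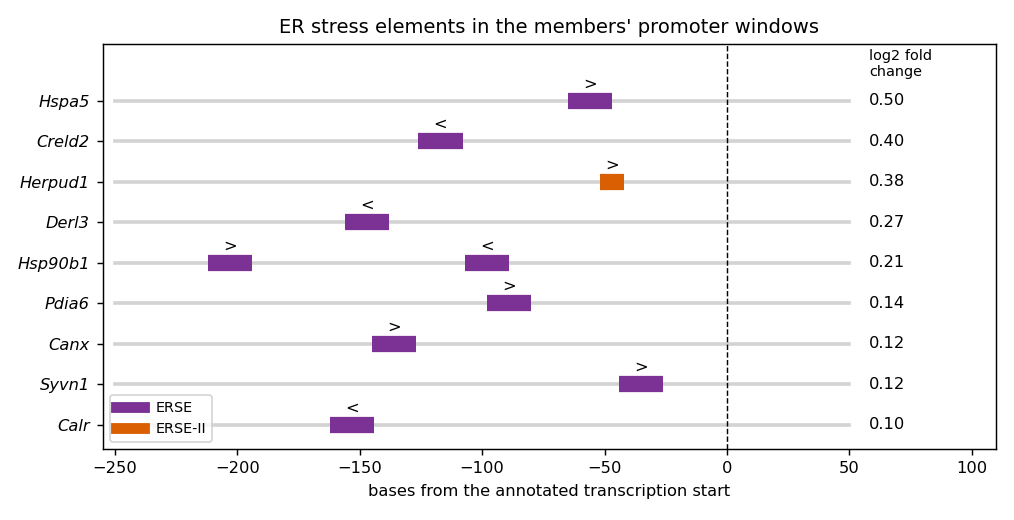
Position of each ERSE and ERSE-II match (x axis, bases from the annotated transcription start) in the promoter windows of the members that hold one (rows), with arrowheads for the strand that reads the element and each member's log2 fold change, cKO minus WT, at the right. The 10 matches lay upstream of the start, from base -212 in Hsp90b1 to base -26 in Syvn1.

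Per length, the members covered a wide range of expression in motor cortex. The mean over all 7 libraries ran from 104 FPKM (fragments scaled to gene length and library depth, the authors' deposited values) for Hspa5 to 0.815 FPKM for Derl3, a derlin of the ERAD channel. In 8 members it exceeded 30 FPKM and in 7 it was under 5 FPKM. Hspa5, the ER HSP70 chaperone BiP, averaged 118 ± 22.9 FPKM in cKO and 84.1 ± 7.97 FPKM in WT (SD, n = 4 and n = 3). Calr, the calcium-binding lectin chaperone calreticulin, followed with 106 ± 5.84 FPKM in cKO and 99.6 ± 5.23 FPKM in WT. The membrane-bound lectin chaperone Canx, the ER HSP90 Hsp90b1 and the disulfide isomerase Pdia3 came next, with means over all libraries of 81.3, 72.0 and 68.1 FPKM. The sensor Ern1, which encodes IRE1, was low at 1.82 ± 0.16 FPKM in cKO and 1.84 ± 0.287 FPKM in WT. All per-library values below are CPM scaled by TMM factors, so they compare libraries for 1 gene and not genes with each other.

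**Figure D2:**
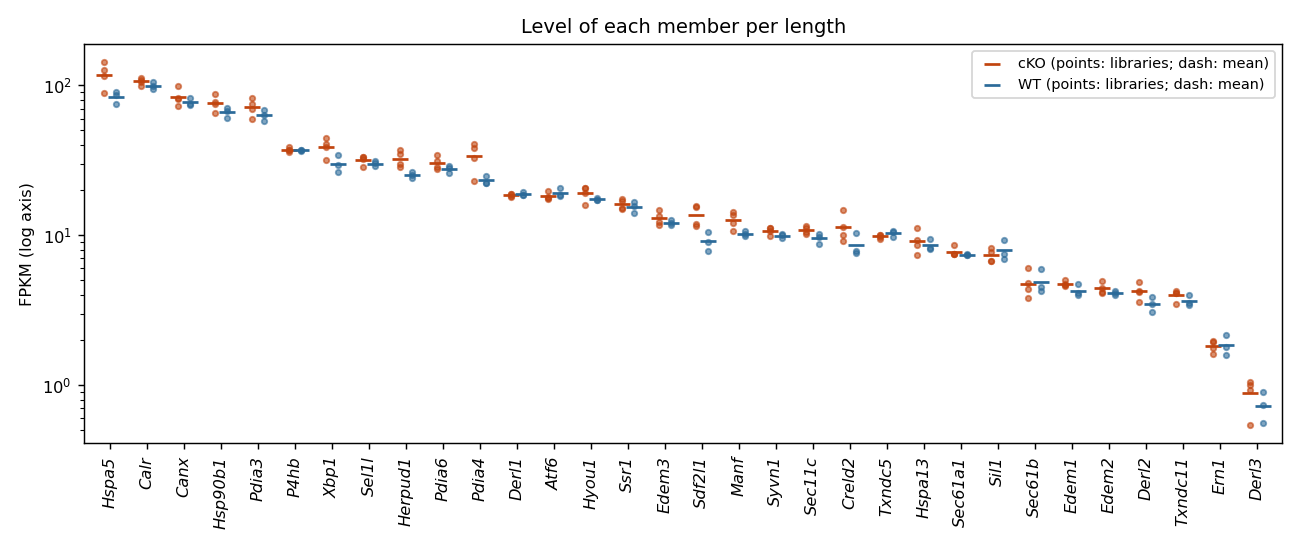
FPKM of the 32 members (y axis, log axis) in each library, members ordered along the x axis by mean level, cKO points left of WT points. Levels ran from a mean of 104 FPKM for Hspa5 to 0.815 FPKM for Derl3.

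Of the 32 members, 26 had a higher mean and 6 a lower one in the libraries labelled cKO (log2 fold change above 0 in 81.25%, against 51.8% of all genes tested). The median log2 fold change of the members was 0.13, against 0.01 over all genes tested. No member passed an adjusted p under 0.05 in edgeR's quasi-likelihood test, where 0 of 16308 genes (0.0%) did, and the members' adjusted p lay between 0.679 and 0.991. At an unadjusted p under 0.05, 8 members were higher in cKO (25%) and 0 were lower, against 4.22% of all genes higher, 2.91% lower and 7.14% in either direction. These 8 were Hspa5, Pdia4, Sdf2l1, Manf, Creld2, Xbp1, Herpud1 and Derl2. In 4 members every cKO library lay above every WT library (12.5%, against 3.97% of all genes), and in 0 every cKO library lay below (3.42% of all genes). DESeq2 called 12 of the 6190 genes it gave an adjusted p (0.194%) and limma-voom 0 of 16308 (0.0%), and neither called a member. DESeq2 gave 8 members no adjusted p, Sdf2l1 and Creld2 among them. With no filter on low counts, edgeR called 198 of 31277 genes (0.633%). These included Hspa5, Pdia4, Sdf2l1, Xbp1 and Herpud1, with adjusted p of 0.000226, 4.35e-05, 0.0380, 0.0219 and 0.0307. Hspa5 had a log2 fold change of 0.49 in that fit and 0.50 with the filter, while its edgeR p was 3.9e-07 and 0.00336. Hspa5, Pdia4 and Xbp1 had groups that overlapped, and none of these calls held with the filter. In bulk tissue, a different number of cells of a type and a different amount of RNA per cell cannot be told apart.

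**Figure D3:**
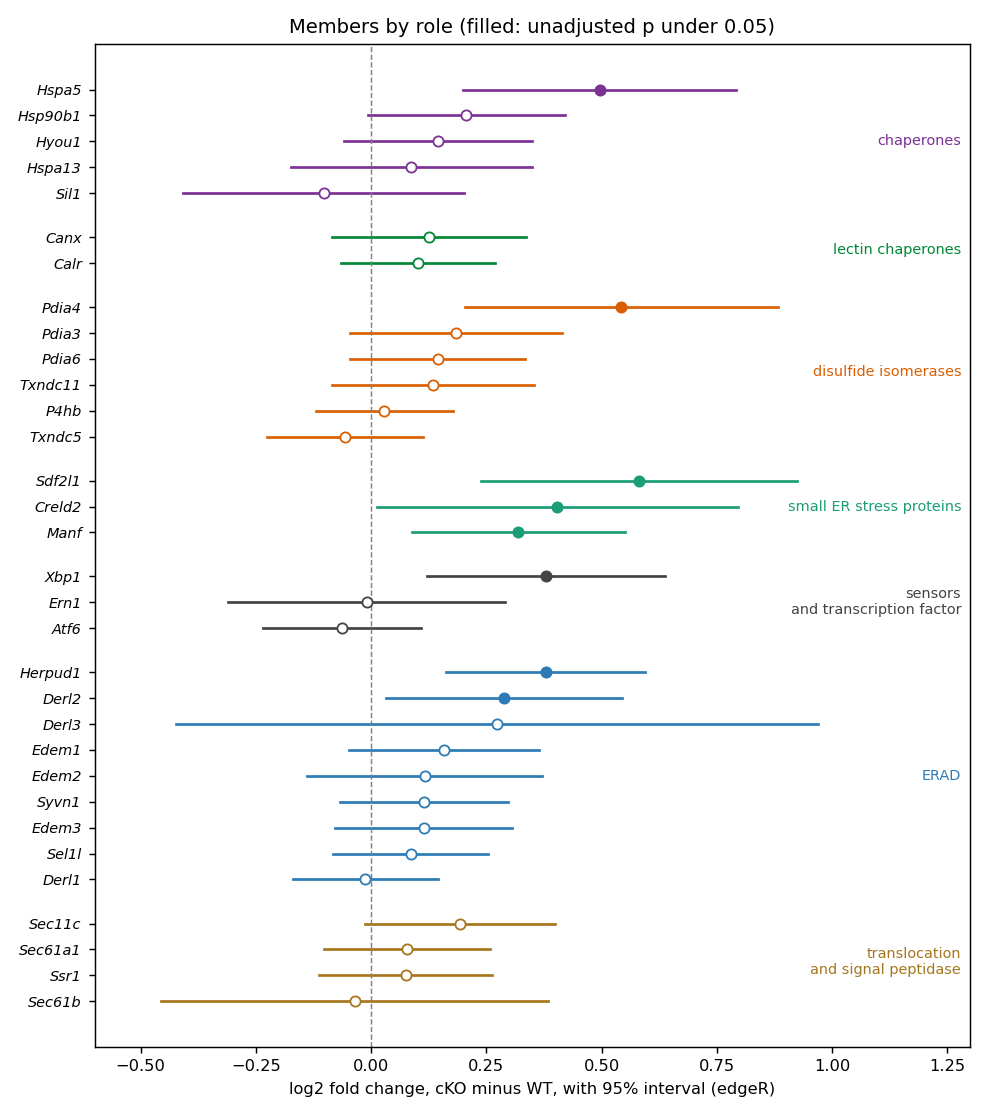
Log2 fold change, cKO minus WT (x axis), of each member with its 95% interval from edgeR, grouped by role down the page. Filled points mark the 8 members with an unadjusted p under 0.05, all of them above 0, and 26 of 32 points lie above 0.

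Among the chaperones, Hspa5 had the lowest p. Hspa5 (ENSMUSG00000026864, chromosome 2, 34771970 to 34777547, forward strand, mm10, protein-coding) had 378, 492, 603 and 537 CPM in cKO replicates 1 to 4, against 317, 386 and 366 CPM in WT replicates 1 to 3. Replicates 2, 3 and 4 of cKO lay above all WT libraries, and cKO replicate 1 lay among them, so the groups overlapped. The log2 fold change was 0.50 ± 0.14 (SE), with a 95% interval from 0.20 to 0.79, an edgeR p of 0.00336 and an adjusted p of 0.679. The two-sided exact permutation p of the log2 CPM was 0.114, and 0.0571 is the smallest p that 4 against 3 libraries can give. Without cKO replicates 3 and 4 the log2 fold change of Hspa5 was 0.28. The Hspa5 promoter, shown above, carried an ERSE from base -65 to base -47. Hsp90b1, the ER form of HSP90 also called GRP94, had a log2 fold change of 0.21 ± 0.10 (edgeR p = 0.0567, exact permutation p = 0.171), and 0.11 without cKO replicates 3 and 4. Hyou1, an ER HSP110-type exchange factor for BiP, and Hspa13, a microsomal HSP70 relative, had log2 fold changes of 0.14 and 0.09 (0.081 and -0.039 without cKO replicates 3 and 4). Sil1, the other exchange factor for BiP, was the lowest of the group at -0.10.

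**Figure D4:**
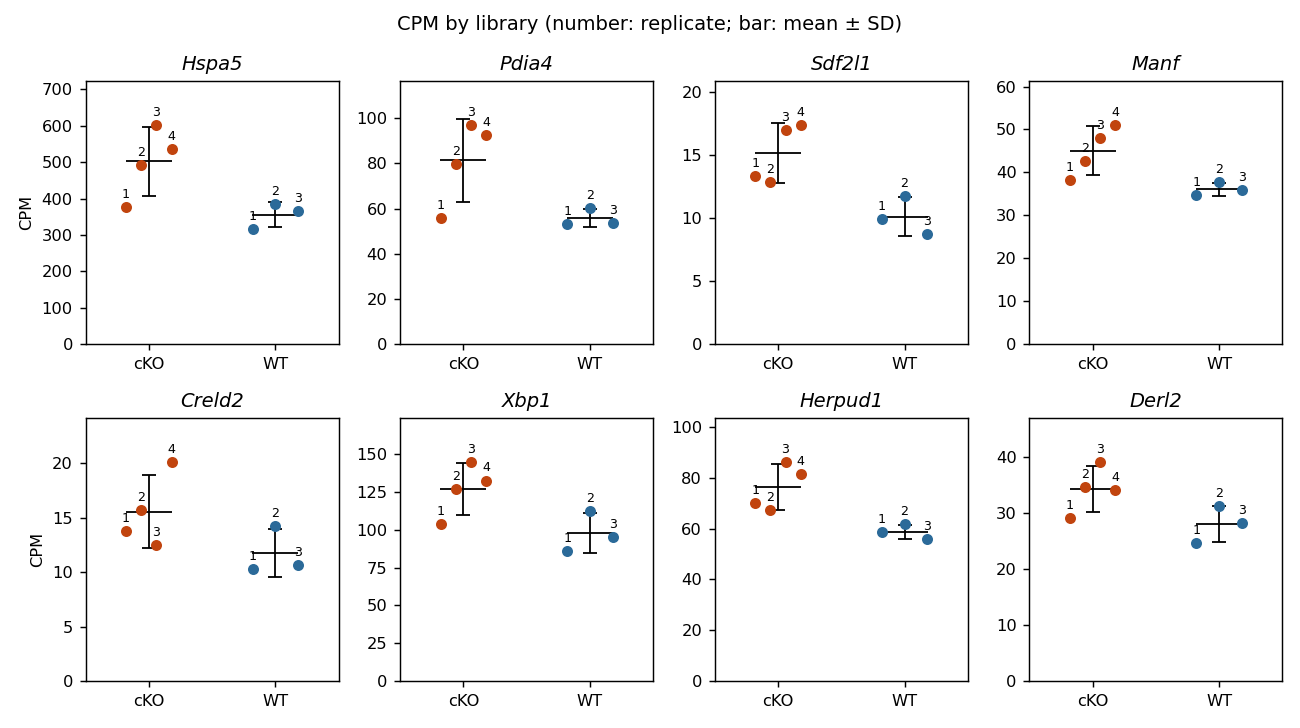
CPM (y axis, from 0) of the 8 members with an unadjusted p under 0.05, cKO on the left and WT on the right of each panel, with the replicate number at each point and the mean ± SD as bars. Replicates 3 and 4 are the highest cKO points in Hspa5, Pdia4, Sdf2l1, Manf, Xbp1 and Herpud1, while cKO replicate 1 lies below the highest WT point in Hspa5, Pdia4, Creld2, Xbp1 and Derl2.

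The lectin chaperones hold glycoproteins that carry a trimmed sugar chain. Calr (ENSMUSG00000003814, chromosome 8, 84841850 to 84846934, reverse strand) had 286, 316, 305 and 325 CPM in cKO, against 271, 289 and 302 CPM in WT. The cKO values of replicates 2, 3 and 4 exceeded every WT value by a small margin, and the log2 fold change of 0.10 ± 0.08 (SE; 95% interval -0.06 to 0.27) was within the spread between libraries. That of Calr without cKO replicates 3 and 4 was 0.064. Canx was at 0.12 ± 0.10, at 0.036 with cKO replicate 3 left out, and at 0.0049 with replicate 4 left out as well. Both genes carried an ERSE.

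Among the disulfide isomerases, which form and rearrange disulfide bonds, Pdia4 had the largest difference. Pdia4 (ENSMUSG00000025823, chromosome 6, 47796141 to 47813430, reverse strand), also called ERp72, had 55.8, 79.5, 97.0 and 92.7 CPM in cKO replicates 1 to 4, against 53.4, 60.3 and 53.6 CPM in WT. Replicates 2 to 4 of cKO were well above WT and replicate 1 was inside the WT range. The log2 fold change was 0.54 ± 0.16 (SE; 95% interval 0.20 to 0.88; edgeR p = 0.00454, adjusted p = 0.679, exact permutation p = 0.114), and 0.27 without cKO replicates 3 and 4. Pdia3 (ENSMUSG00000027248, chromosome 2, 121413775 to 121438687, forward strand), the isomerase that works with the lectin chaperones, had 188, 222, 258 and 236 CPM in cKO, against 181, 201 and 215 CPM in WT. Its log2 fold change was 0.18 ± 0.11, with overlapping groups. It stood at 0.11 with cKO replicate 3 left out, and at 0.038 with replicate 4 left out as well. Pdia6 and Txndc11 were at 0.14 and 0.13 (0.033 and 0.059 without cKO replicates 3 and 4), the founding member of the family P4hb at 0.03, and Txndc5 at -0.06.

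All 3 small ER stress proteins had an unadjusted edgeR p under 0.05, against 4.22% of all genes higher at that p. Their median log2 fold change was 0.40. Over 21 alternative settings, the unadjusted p was under 0.05 in 21 for Sdf2l1, 20 for Manf and 8 for Creld2. With the replicate number as a block, Creld2 did not reach it (0.26). Sdf2l1 (ENSMUSG00000022769, chromosome 16, 17130138 to 17132383, reverse strand), a partner of BiP and its J-domain proteins, had 13.4, 12.9, 17.0 and 17.4 CPM in cKO, against 9.91, 11.8 and 8.72 CPM in WT. Every cKO value exceeded every WT value. The log2 fold change of 0.58 ± 0.16 (SE; 95% interval 0.24 to 0.92; edgeR p = 0.0031, adjusted p = 0.679, exact permutation p = 0.0571) was the highest of the 32 members, and it was 0.37 without cKO replicates 3 and 4. Manf (ENSMUSG00000032575, chromosome 9, 106838312 to 106891979, reverse strand), a secreted and ER-resident neurotrophic factor that binds BiP, had 38.3, 42.7, 48.1 and 51.1 CPM in cKO, against 34.8, 37.7 and 35.8 CPM in WT. Here too the groups did not overlap, although cKO replicate 1 exceeded WT replicate 2 only narrowly. The log2 fold change of Manf was 0.32 ± 0.11 (edgeR p = 0.0109, exact permutation p = 0.0571), and 0.16 without cKO replicates 3 and 4. Creld2 (ENSMUSG00000023272, chromosome 15, 88819646 to 88826683, forward strand), an ER-resident and secreted protein with EGF-like repeats, had 13.8, 15.7, 12.5 and 20.2 CPM in cKO, against 10.3, 14.3 and 10.7 CPM in WT. Replicates 1 and 3 of cKO lay below WT replicate 2, and the log2 fold change was 0.40 ± 0.18 (edgeR p = 0.0437, adjusted p = 0.696, exact permutation p = 0.171). Without cKO replicate 4 that of Creld2 was 0.25, and without replicates 3 and 4 it was 0.32.

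Of the sensors and their transcription factor, only Xbp1 had an unadjusted p under 0.05. The difference between these genes was not tested. Xbp1 (ENSMUSG00000020484, chromosome 11, 5520659 to 5525893, forward strand), the transcription factor made from IRE1-spliced mRNA, had 104, 127, 145 and 133 CPM in cKO, against 86.1, 112 and 94.97 CPM in WT. Replicates 2 to 4 of cKO lay above all WT libraries and replicate 1 below WT replicate 2. Its log2 fold change was 0.38 ± 0.12 (SE; 95% interval 0.12 to 0.64; edgeR p = 0.00764, adjusted p = 0.679, exact permutation p = 0.114), and 0.23 without cKO replicates 3 and 4. Gene counts do not separate spliced from unspliced Xbp1 mRNA. The sensors themselves had log2 fold changes of -0.01 ± 0.14 for Ern1 and -0.06 ± 0.08 for Atf6, with intervals from -0.31 to 0.29 and from -0.24 to 0.11, and Ern1 was at 0.089 without cKO replicates 3 and 4.

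Among the 9 ERAD genes, 8 had a log2 fold change above 0, with a median of 0.12. Herpud1 (ENSMUSG00000031770, chromosome 8, 94386438 to 94395377, forward strand), a ubiquitin-like membrane protein of the ERAD complex and the member with an ERSE-II, had 69.99, 67.2, 86.4 and 81.4 CPM in cKO, against 58.6, 61.6 and 55.7 CPM in WT. No cKO library lay within the WT range. The log2 fold change was 0.38 ± 0.10 (SE; 95% interval 0.16 to 0.59; edgeR p = 0.0024, adjusted p = 0.679), with an exact permutation p of 0.0571. Without cKO replicates 3 and 4 that of Herpud1 was 0.22. Derl2 (ENSMUSG00000018442, chromosome 11, 71007164 to 71019841, reverse strand), a derlin, had 29.0, 34.6, 39.1 and 34.02 CPM in cKO, against 24.7, 31.1 and 28.1 CPM in WT. Replicate 1 of cKO lay inside the WT range, and the log2 fold change was 0.29 ± 0.12 (edgeR p = 0.0306, adjusted p = 0.694, exact permutation p = 0.114). Without cKO replicates 3 and 4 that of Derl2 was 0.18. The unadjusted p of Derl2 was under 0.05 in 12 of the 21 alternative settings. Sel1l (ENSMUSG00000020964, chromosome 12, 91806043 to 91849157, reverse strand), the adaptor of the ubiquitin ligase SYVN1, had 248, 285, 284 and 276 CPM in cKO, against 247, 259 and 266 CPM in WT. Its log2 fold change of 0.09 ± 0.08 was within the spread between libraries (0.043 without cKO replicates 3 and 4), and that of Syvn1, the ligase itself, was 0.12 ± 0.08. The 3 mannosidase-like EDEM genes, which mark misfolded glycoproteins, were at 0.16 (Edem1), 0.12 (Edem2) and 0.11 (Edem3), and without cKO replicates 3 and 4 at 0.20, 0.20 and 0.059 in that order. The other derlins were at -0.01 ± 0.07 (Derl1) and 0.27 ± 0.32 (Derl3), where Derl3 had only 18 to 32 counts per library and stood at 0.0080 without cKO replicates 3 and 4.

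Of the 4 genes of translocation and signal peptide cleavage, none had an unadjusted p under 0.05. Sec61a1 (ENSMUSG00000030082, chromosome 6, 88503579 to 88518905, reverse strand), the pore of the Sec61 channel, had 50.8, 50.9, 50.3 and 58.1 CPM in cKO, against 50.1, 49.7 and 49.5 CPM in WT. The groups did not overlap, with 3 of the 4 cKO values close to those of WT, and the log2 fold change was 0.08 ± 0.08 (edgeR p = 0.363, exact permutation p = 0.0571). Without cKO replicate 4 the log2 fold change of Sec61a1 was 0.02, and without replicates 3 and 4 it was 0.025. Ssr1 (ENSMUSG00000021427, chromosome 13, 37966605 to 37994217, reverse strand), a subunit of the translocon-associated protein complex, had 161, 178, 183 and 157 CPM in cKO, against 147, 174 and 163 CPM in WT. Its groups overlapped, with a log2 fold change of 0.08 ± 0.09 (0.069 without cKO replicates 3 and 4). The signal peptidase subunit Sec11c was at 0.19 ± 0.09 (edgeR p = 0.0641, exact permutation p = 0.114) and the small channel subunit Sec61b at -0.04 ± 0.19.

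The libraries differed in how far the members stood from their own means. The mean over the 32 members of the log2 deviation from each gene's mean over all libraries was -0.06, 0.07, 0.13 and 0.14 in cKO replicates 1 to 4, against -0.15, -0.04 and -0.09 in WT replicates 1 to 3. The value of cKO replicate 1 lay between those of the WT libraries, and the other 3 cKO libraries lay above them. The highest value of a member was in a cKO library for 27 of 32 members, and in cKO replicate 3 or 4 for 20. The lowest was in a WT library for 22 members, and in WT replicate 1 alone for 15. Exactly 3 of 4 cKO libraries exceeded every WT library in 14 members, and in 11 of these the library that did not was cKO replicate 1. The shares over all genes were not computed for these counts, and 4 of the 7 libraries were cKO. Without cKO replicate 1, every cKO library exceeded every WT library in 14 members, against 7.54% of all genes. That library was singled out here by the members' own values, so the share over all genes is not a like comparison.

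The coefficient of variation of CPM was larger in cKO than in WT for 24 of 32 members, with medians of 10.1% in cKO and 7.36% in WT. The same share over all genes was not computed, so the wider spread is not shown to be particular to the members. Members were also set side by side between the libraries with Xist and between those with Ddx3y. Between the pair with Xist, 23 of 32 members were higher in cKO replicate 1 than in WT replicate 1. That count sets a single library against another, and the share over all genes for this pair was not computed. In the 5 libraries with Ddx3y, all 3 cKO libraries lay above both WT libraries in 15 members (against 10.9% of all genes), and the median log2 fold change was 0.14. Their edgeR fit had 8 members higher at an unadjusted p under 0.05, against 3.0% of all genes. That fit was added after the data were seen, and it too leaves out cKO replicate 1.

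**Figure D5:**
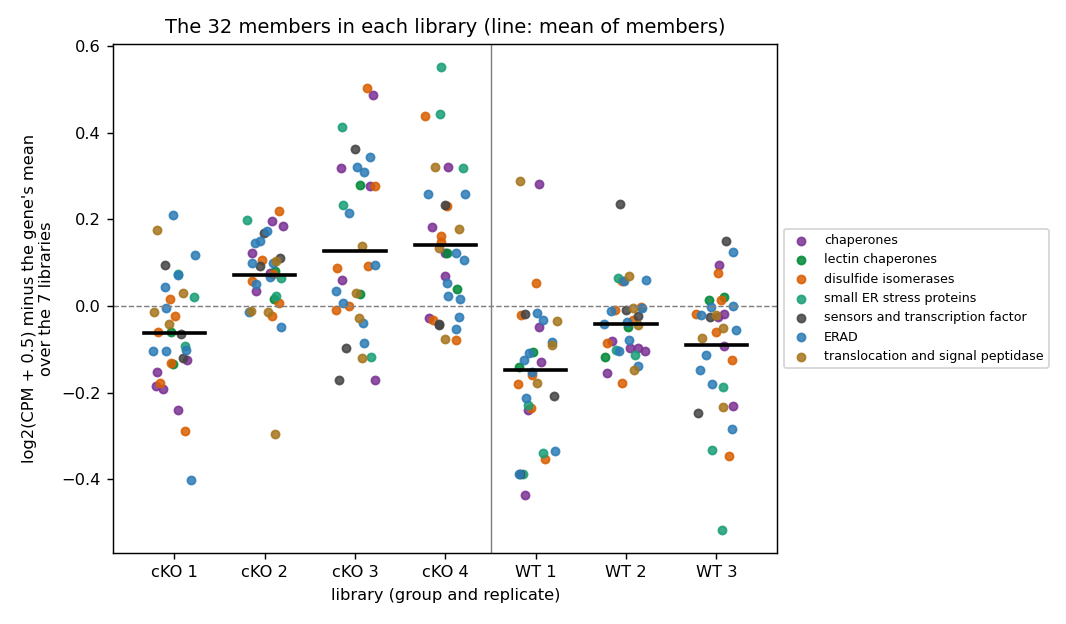
Log2 deviation of each member from its mean over the 7 libraries (y axis), by library along the x axis with cKO left of WT. Points are members coloured by role, and the line is the mean of the members, highest at 0.14 in cKO replicate 4 and lowest at -0.15 in WT replicate 1.

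The cKO libraries with the highest member means, replicates 3 and 4, were those with the olfactory bulb and choroid plexus markers, and the part of those tissues in the differences was not tested. Without both, 26 members had a log2 fold change above 0 (against 49.1% of all genes), 25 of them shared with the 26 of the full comparison, where Hspa13 left and Ern1 entered. The median was 0.07, and 4 members (Hspa5, Pdia4, Sdf2l1 and Herpud1) were higher at an unadjusted edgeR p under 0.05, against 3.41% of all genes. The summed level of 6 excitatory neuron markers was 3754 to 4587 CPM in cKO, against 4600.3 to 5163 CPM in WT, with no overlap. That of 6 oligodendrocyte markers was 3922 to 7845 CPM in cKO, against 3641 to 5583 CPM in WT, with its lowest cKO value in replicate 3 and its highest in replicate 2. That of 5 inhibitory neuron markers was 849, 963, 1223 and 843 CPM in cKO replicates 1 to 4, against 754 to 860.1 CPM in WT. Replicates 1 and 4 of cKO thus lay inside the WT range. The sum of 6 striatal neuron markers was 969.9 CPM in cKO replicate 2 and 541 to 711 CPM in the other cKO libraries, against 503 to 657 CPM in WT. Replicate 2 of cKO, highest in striatal and oligodendrocyte markers, stays in the fit without cKO replicates 3 and 4. Astrocyte, microglia and endothelial markers overlapped between the groups. Their sums were 5026 to 5643 CPM in cKO and 4968 to 5495 CPM in WT for astrocytes, 282 to 310.5 CPM in cKO and 295 to 358 CPM in WT for microglia, and 197 to 211 CPM in cKO and 178 to 215 CPM in WT for endothelium. Plasma cell markers, for a cell type rich in ER, summed to 0.481 to 1.01 CPM in cKO and 0.396 to 2.56 CPM in WT. Meningeal fibroblast markers summed to 31.6 to 65.7 CPM in cKO and 29.1 to 67.2 CPM in WT. No marker of these lists was at 0 in all libraries, and the part of cell composition in the members' differences was not tested.

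The other genes of the pathway, 62 listed of which 61 were tested, were written as a list beside the members. Of these 61, 34 had a log2 fold change above 0, with a median of 0.03, and 2 were higher and 0 lower at an unadjusted p under 0.05 (3.28% higher, against 4.22% of all genes). In 4 of them (6.56%, against 3.97% of all genes) every cKO library lay above every WT library, namely Dnajc3, Creb3l2, Dnajb9 and Rnf139, and in 1, Atf6b, every cKO library lay below. None passed an adjusted p under 0.05. The 2 at an unadjusted p under 0.05 were Dnajc3, a J-domain co-chaperone of BiP that also inhibits PERK, and Creb3l2, a membrane-bound transcription factor of the ATF6 kind. Dnajc3 had 97.3, 116, 149 and 120.3 CPM in cKO, against 89.1, 96.0 and 93.2 CPM in WT. All cKO libraries exceeded all WT libraries, with a log2 fold change of 0.38 ± 0.12 (edgeR p = 0.00776, exact permutation p = 0.0571), and the gene was 1 of 2 in this group with an ERSE. Without cKO replicates 3 and 4 that of Dnajc3 was 0.20. Creb3l2 had 24.5, 32.5, 27.7 and 30.5 CPM in cKO, against 19.0, 23.0 and 20.1 CPM in WT, without overlap and with a log2 fold change of 0.47 ± 0.12 (edgeR p = 0.0019, adjusted p = 0.679, exact permutation p = 0.0571). Without cKO replicates 3 and 4 that of Creb3l2 was 0.45. Dnajb9, an ER J-domain protein, was at 0.21 (0.063 without cKO replicates 3 and 4), and Rnf139, an ER ubiquitin ligase, at 0.20 (0.11 without them); these genes were named after their values were seen.

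The PERK arm, 6 genes, had 2 above 0 and a median log2 fold change of -0.02. Atf4, its transcription factor and the gene of this list with the highest level per length, was at -0.01 ± 0.09, with an interval from -0.20 to 0.18. The J-domain partners had 5 of 6 above 0 and a median of 0.16. Oxidative folding had 6 of 10 above 0 (median 0.11; Tmx4, its most abundant gene, at 0.00), and glycoprotein quality control 2 of 6 (median -0.02; Ganab, a subunit of glucosidase II, at -0.03). The ATF6 proteases and related factors had 3 of 6 above 0 (median -0.03), and Atf6b, the relative of ATF6, was the most abundant at -0.16 ± 0.08, with every cKO library below every WT library. The ERAD partners had 7 of 14 above 0 (median 0.00; Vcp, the ATPase that extracts ERAD substrates, at -0.05), the translocon and signal peptidase partners 8 of 11 (median 0.05; Sec62 at 0.11), and the KDEL receptors 1 of 2 tested (Kdelr1 at -0.01).

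Across the 24 members with a promoter window, those with an ERSE or ERSE-II (9 members) had a median log2 fold change of 0.21, ranging from 0.10 for Calr to 0.50 for Hspa5, with 3 of 9 higher at an unadjusted p under 0.05. Those with neither (15 members) had a median of 0.12, from -0.06 for Txndc5 to 0.58 for Sdf2l1, with 4 of 15. The 8 members without a window had a median of 0.08, with Manf the 1 at an unadjusted p under 0.05. Sdf2l1 and Pdia4, the members with the largest log2 fold changes, had no exact match to either element in the windows shown above. Over all genes tested, 4.22% were higher at an unadjusted p under 0.05. The difference between these sets was not tested.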

How the data were processed

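The authors deposited raw gene counts and FPKM values for the same 54532 genes and 7 libraries; featureCounts 1.5.0-p3, DESeq2 1.20.0 and the mm10 build are named in the submitters' processing notes. The aligner, annotation release and strand setting are not stated in those sources, and 11 of 32 members share exonic bases with another gene of GENCODE M21 (at most 10.3% of the exonic bases, in Hsp90b1), so their counts hold some uncertainty.

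The deposited counts were tested with edgeR 4.0.16 (R 4.3.3): TMM factors, the default filterByExpr filter, the quasi-likelihood F test on genotype, and Benjamini-Hochberg adjustment over all 16308 genes; the procedure was tested on simulated data. The SE was taken as the size of the log2 fold change over the square root of F. Exact permutation tests used log2 CPM over 35 splits (SciPy 1.17.1). The deviations of members from their own means used log2(CPM + 0.5). The deposited FPKM served for levels per length. Alternatives were other scalings and filters, DESeq2 1.42.0, limma 3.58.1, sex as a factor, a replicate block and libraries left out; the fit without replicate 1 of both groups was added after seeing the data.

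Members and gene lists were chosen with earlier results of these data known. Values in every library are given for members with an unadjusted p under 0.05, members whose groups did not overlap, and the member with the highest mean FPKM in each role; other pathway genes were named at an unadjusted p under 0.05 or as the highest in FPKM of their list. Both groups use the replicate numbers 1 to 3, whose meaning is not labelled. Deviations from group means correlated at 0.110, 0.128 and 0.122 for numbers 1 to 3, each above 0.1, which met the criterion for a pairing. Libraries of unlike number went higher: WT replicate 1 with cKO replicate 3 reached 0.129, and WT replicate 2 with cKO replicate 4 reached 0.210. The values in the results come from the fit without the replicate block, and the block was an alternative.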

Additional observations from a re-analysis of the deposited data

Results flagged for a closer look

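In Sec61a1, the pore of the Sec61 channel, cKO replicate 4 stood at 58.1 CPM, far from the other 3 cKO libraries (50.3 to 50.9 CPM) and from WT (49.5 to 50.1 CPM). This was the only one of 32 members whose highest or lowest cKO library was separated from the others by a gap past Dixon's 95% critical value for 4 samples, and chance alone flags about 1 in 20 groups. Its log2 fold change was 0.08, and 0.02 without that library.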

How the results depend on the processing

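All 32 members had values under 21 alternatives, 7 of them leaving out 1 library, and 27 members kept the sign of their log2 fold change in all of these. Over other scalings, filters, tools, the sex factor and libraries left out, 26 to 28 members were above 0. Genes called at an adjusted p under 0.05 numbered 0 by edgeR with the filter, 12 with DESeq2, 3 with limma on log2(FPKM + 1) with no filter, 198 with no filter, 2 with the replicate block, 1 without cKO replicates 3 and 4, and 0 to 3 with 1 library left out. With no filter, 5 members were called, 4 other pathway genes were higher at an unadjusted p under 0.05 and 2088 genes had an unadjusted p under 0.05 (558 without WT replicate 1, 763 without cKO replicate 2 and up to 1596 with 1 library left out, here cKO replicate 1), and the cause was not tested. With 1 library left out, 6 to 11 members were higher at an unadjusted p under 0.05 (2.07% to 5.50% of all genes), 3 to 14 members had every cKO library above every WT library (4.97% to 9.29% of all genes; 10 members without WT replicate 2, 14 without cKO replicate 1), and 2 to 5 other pathway genes were higher at an unadjusted p under 0.05 (5 without WT replicate 2). Without cKO replicates 3 and 4 these numbered 4 (3.41% of all genes), 8 (10.2% of all genes, where fewer libraries have to lie above WT) and 1, and without replicate 1 of both groups 15 members did not overlap (10.9% of all genes).

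Sign changes were met in members near 0: Hspa13 (-0.039 without cKO replicates 3 and 4, and -0.025 to 0.16 with 1 library left out), Sil1 (0.063 without replicate 1 of both groups, -0.19 to 0.021 with 1 left out), Ern1 (0.089 without cKO replicates 3 and 4, 0.011 with the replicate block, -0.12 to 0.11 with 1 left out), Derl1 (-0.029 to 0.0033 with 1 left out) and Sec61b (0.11 without replicate 1 of both groups, -0.18 to 0.12 with 1 left out). With the replicate block, which pairs numbers 1 to 3 and draws nothing on genotype from cKO replicate 4, 27 members were above 0 and 8 were higher at an unadjusted p under 0.05, against 4.39% of all genes, with Hsp90b1 in and Creld2 out, and no call of a member changed. Depth limits the low genes most, Derl3 (18 to 32 counts per library) and Sec61b among them, and 4 against 3 libraries cannot give a two-sided permutation p under 0.0571.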
